A study of Homo sapiens with 8 samples.

Results

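The transcription factors SNAI1, SNAI2, TWIST1, TWIST2, ZEB1 and ZEB2 were followed across 8 expression arrays of SAS cells, a human line established from a tongue squamous cell carcinoma. Every non-control probe that carried 1 of these 6 gene names on the array was taken, which gave 13 of 58201 gene probes. In 3 groups the cells received 25 nM of a synthetic miRNA mimic, of miR-629-3p in one, miR-210-3p in another and miR-874-3p in the last, and a further group, NC, received a negative control RNA, all delivered with the same lipid reagent. Per the methods, the mimics and the negative control came from different suppliers, so supplier and mimic cannot be told apart in comparisons with NC. Each group had 2 arrays, and the cells of every group were grown with puromycin. The labels name the cells SAS, while the methods of the study name SAS/GFP cells, which carry a GFP vector. The labels give 48 h from transfection to RNA extraction and a miRNeasy kit, and the methods give a shorter time and another kit. The labels do not say whether the arrays of a group came from separate cultures, so the p-values measure the spread between these samples, which may be technical.

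SNAI1 (Snail) and SNAI2 (Slug) are zinc finger repressors, TWIST1 and TWIST2 are basic helix-loop-helix (bHLH) factors that act as dimers with E proteins, and ZEB1 and ZEB2 are zinc finger and homeodomain repressors. Together they are known as the core drivers of epithelial-mesenchymal transition (EMT), in which cells lose E-cadherin and junctions and gain mesenchymal genes. SNAI2 is also a normal gene of the basal layer of squamous epithelium, and the ZEB factors and the miR-200 family are known to repress each other. A miRNA pairs with RNAs mainly through its seed, bases 2 to 8, and lowers the level or the translation of those RNAs.

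The 3 transfected miRNAs are shown because their seeds set which RNAs each can pair with. The mature sequences, from RefSeq on GRCh38.p14, are written 5′ to 3′ with the seed in capitals, and the 3 seeds are different.
miR-629-3p: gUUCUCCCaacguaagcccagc
miR-210-3p: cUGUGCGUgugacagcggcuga
miR-874-3p: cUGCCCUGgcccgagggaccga
The DNA letters that pair with the miR-629-3p seed, GGGAGAA, were in 0 of the 13 probes of the 6 factors and in 0.747% of all 58201 gene probes. Those for miR-210-3p (ACGCACA) were in 0 of 13 and 0.131%. Those for miR-874-3p (CAGGGCA) were in 0 of 13 and 0.387%. Probes are 60 bases long and cover a small part of each transcript, so sites elsewhere in these transcripts were not searched.

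All values below are log2 signals relative to the 75th percentile of the array's gene probes, so that 0 is the level of that percentile and a difference of 1 is a 2-fold change. All 8 arrays lay on 1 slide with 1 scan. Row 1 of the slide held the arrays of miR-210-3p and miR-629-3p, and row 2 held those of NC and miR-874-3p, so slide row and mimic cannot be told apart where miR-629-3p or miR-210-3p is compared with NC or miR-874-3p. Within each row the arrays of a group lay side by side, so position in the row and group cannot be told apart within a row. Between 24559 and 29008 probes per array were well above background, with the lowest numbers on the NC arrays, and the dimmest such signal lay between -3.74 on miR-629-3p array 1 and -2.82 on NC array 2. All 8 squamous epithelial markers were above background on every array, from the keratins KRT5 and KRT14 to TP63. Of 7 fibroblast markers, COL1A2, COL3A1, DCN and LUM were above background on none, PDGFRB on all 8, COL1A1 on 6 and THY1 on 1. Of 3 endothelial markers, VWF and CDH5 were above background on all 8 and PECAM1 on 2. Of the leukocyte markers, PTPRC was above background on all 8 and CD3E on 4, and CD68 and LYZ had no value.

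Of the 13 probes, 5 were well above background on all 8 arrays, namely those of SNAI1 and SNAI2, 1 of TWIST1 and both of TWIST2. A further 3 were measured on some arrays, and 5 probes of TWIST1, ZEB1 and ZEB2 on none. A probe was tested if both arrays of some group read it well above background, which left 7 of the 13. One TWIST1 probe passed only through the groups miR-210-3p and miR-629-3p, and the ZEB1 probe only through the miR-210-3p arrays.

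**Figure D1:**
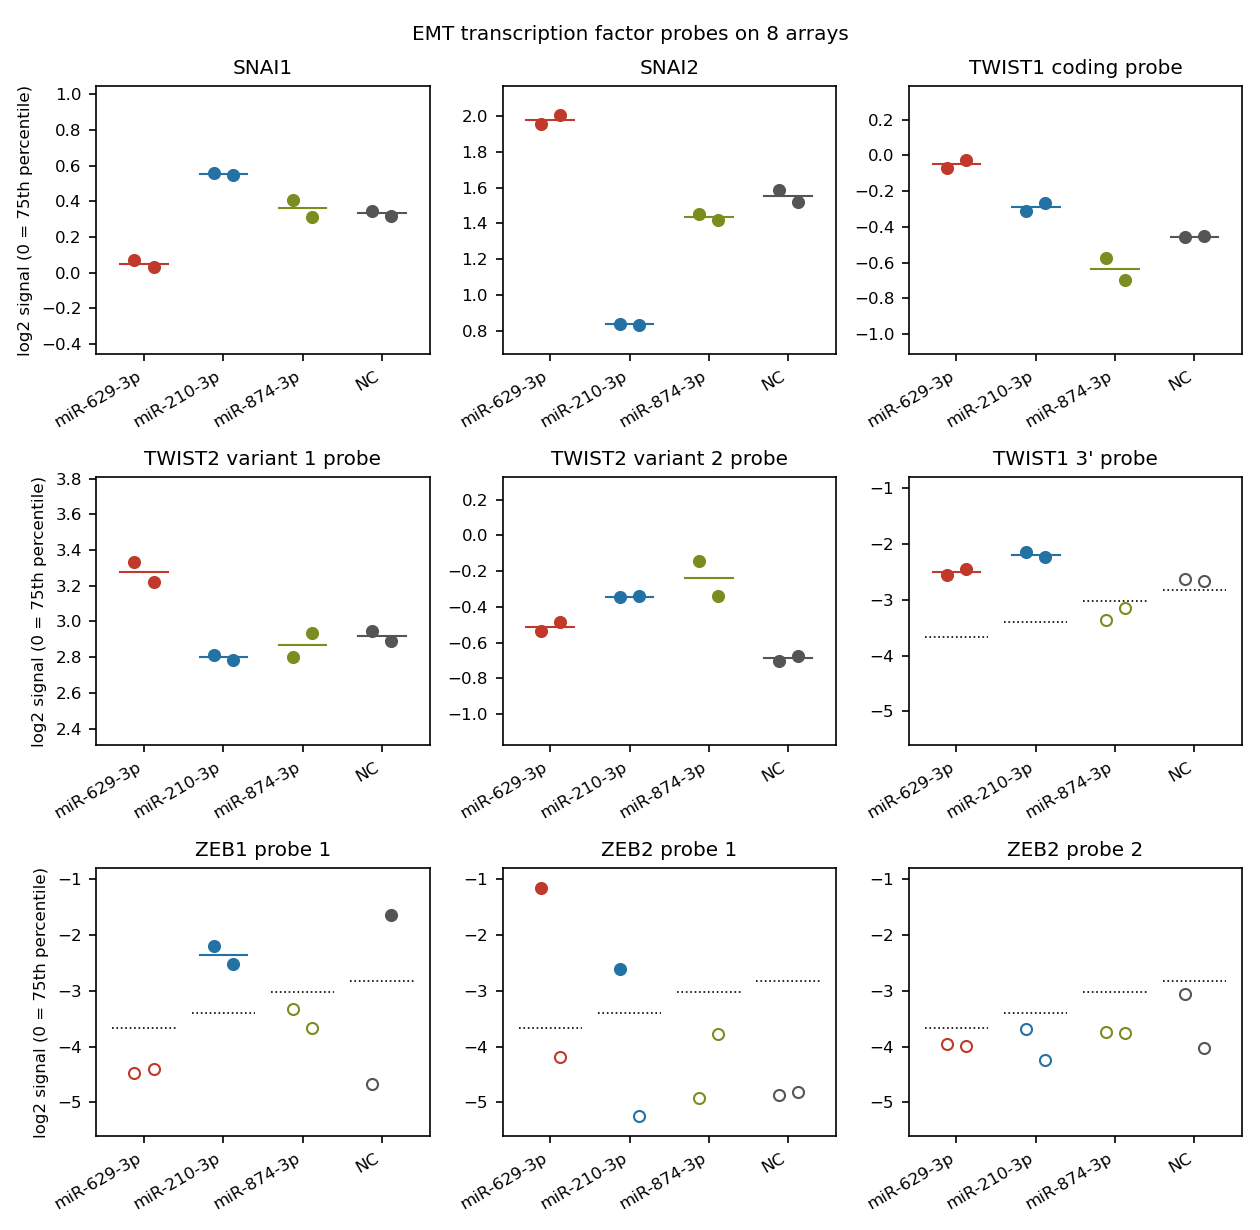
Log2 signal of 9 probes of the 6 factors, with 1 point per array in each of the 4 groups, filled where the probe was well above background and open where it was not. Lines give the mean of groups measured on both arrays, and dotted lines in the 4 dim probes the dimmest detected signal. SNAI2 was highest after miR-629-3p and lowest after miR-210-3p, SNAI1 had the opposite order, and the ZEB probes were not well above background on most arrays.

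In an F test of limma over the 4 groups, the 5 probes measured on all arrays differed between groups at an adjusted p under 0.05. The TWIST1 3′ and ZEB1 probes passed the filter only through groups in which they were above background, so they are not read from this test. The same test called 23.3% of all probes, those measured in only some groups included. SNAI2 had the smallest adjusted p of the 5, at 0.00478. Only 1 of the 6 members, SNAI2, moved by more than 2-fold between any pair of groups that both measured it.

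SNAI2 was higher after miR-629-3p and lower after miR-210-3p than after NC. Its probe (hg19, chr8:49830710-49830769, minus strand) read 1.96 and 2.0 after miR-629-3p, 0.84 and 0.83 after miR-210-3p, 1.45 and 1.42 after miR-874-3p, and 1.59 and 1.52 after NC. No groups overlapped, and the order from high to low was miR-629-3p, NC, miR-874-3p and miR-210-3p. Against NC, SNAI2 was 1.34-fold higher after miR-629-3p (log2 difference 0.43 ± 0.07, SE, n = 2 against 2, adjusted p = 0.0183 in limma). With miR-210-3p it was 1.65-fold lower (-0.72 ± 0.07, adjusted p = 0.0120). The neighbours miR-874-3p and NC differed by -0.12, with a 95% interval of -0.29 to 0.05 and an adjusted p of 0.468. Within slide row 1, SNAI2 was 2.21-fold higher after miR-629-3p than after miR-210-3p (1.14 ± 0.07, adjusted p = 0.00215). Against miR-874-3p it was higher after miR-629-3p (0.54, adjusted p = 0.0100) and lower after miR-210-3p (-0.60, adjusted p = 0.0128). The call of miR-629-3p against NC was lost without any 1 of the miR-629-3p, miR-210-3p or NC arrays (adjusted p from 0.0509 to 0.100), and that of miR-210-3p against NC without miR-210-3p array 1 or 2 or NC array 1 (0.0883, 0.0820 and 0.0509) or with no filter on detection (0.0706). The calls against miR-874-3p were lost without either array of the mimic compared (0.0653 and 0.0715 for miR-629-3p, 0.0932 and 0.0856 for miR-210-3p), and that of miR-210-3p also with no filter (0.0809). The difference within slide row 1 stayed called in every alternative and with each array left out, with an adjusted p of at most 0.0431.

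SNAI1 had the reverse order of SNAI2. The SNAI1 probe (chr20:48605170-48605229, plus strand) read 0.07 and 0.03 after miR-629-3p, 0.56 and 0.55 after miR-210-3p, 0.41 and 0.31 after miR-874-3p, and 0.35 and 0.32 after NC. The miR-210-3p arrays were the highest and the miR-629-3p arrays the lowest, while NC and miR-874-3p overlapped. Within slide row 1, SNAI1 was 1.42-fold lower after miR-629-3p than after miR-210-3p (-0.50 ± 0.07, SE, adjusted p = 0.0105 in limma). It was also lower after miR-629-3p than after miR-874-3p (-0.31 ± 0.07, adjusted p = 0.0433). Against NC neither mimic passed the test, with a difference of -0.28 for miR-629-3p (95% interval -0.46 to -0.10, adjusted p = 0.0538) and of 0.22 for miR-210-3p (0.04 to 0.40, adjusted p = 0.130). The miR-629-3p value lay close to the threshold and passed it in 4 of the 13 alternatives that kept all arrays. Both SNAI1 calls were open to the loss of 1 array: the call in row 1 was lost without either array of its groups (adjusted p from 0.0631 to 0.0707), and the call against miR-874-3p was kept only without miR-874-3p array 2 (adjusted p from 0.0738 to 0.185 without each other array). The latter call was also lost in 7 of the 13 alternatives that kept all arrays (adjusted p from 0.0517 to 0.226). Of these alternatives, the call in row 1 was lost with no filter on detection (0.0608 in limma) and by the methods' t-test (0.0508).

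Over the 8 arrays, the log2 signals of SNAI1 and SNAI2 had a Pearson r of -0.96. The 8 arrays share 1 slide and the same scaling and fall into 4 groups, so this r describes the group means more than single arrays.

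TWIST1 was higher after miR-629-3p by the probe that lies in its coding sequence. The probe (hg19, chr7:19156462-19156521, minus strand) is shown because its letters encode part of the bHLH domain, a stretch that TWIST1 and TWIST2 share almost completely as protein.
TWIST1 coding probe: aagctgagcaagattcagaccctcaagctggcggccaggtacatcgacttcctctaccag
Binding of TWIST2 RNA to this probe was not tested. Its log2 signal was -0.07 and -0.03 after miR-629-3p, -0.31 and -0.27 after miR-210-3p, -0.57 and -0.70 after miR-874-3p and -0.46 and -0.45 after NC. The order from high to low was miR-629-3p, miR-210-3p, NC and miR-874-3p, with no overlap between groups. TWIST1 was 1.33-fold higher after miR-629-3p than after NC (0.41 ± 0.08, SE, adjusted p = 0.0250 in limma) and 1.50-fold higher than after miR-874-3p (0.59 ± 0.08, adjusted p = 0.0105). Neighbours in that order did not pass the test, with 0.24 between miR-629-3p and miR-210-3p (adjusted p = 0.0759), 0.16 between miR-210-3p and NC (0.247) and -0.18 between miR-874-3p and NC (0.333). The call against NC was lost without any 1 of the miR-629-3p, miR-210-3p or NC arrays (adjusted p from 0.0610 to 0.123), and the call against miR-874-3p without either miR-629-3p array (0.0668 and 0.0727).

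The TWIST1 3′ probe (chr7:19155645-19155704), downstream of the coding probe, was dim and had another order. It read -2.56 and -2.45 after miR-629-3p and -2.14 and -2.24 after miR-210-3p, above background on all 4 arrays. The signals of -3.36 and -3.16 after miR-874-3p and of -2.62 and -2.66 after NC were not well above background. Where only 1 group of a pair was measured, the fold was taken against the higher of the dim probe's own signal and the dimmest detected signal on each array. It is a lower bound only where the latter was higher, and it leaves out the spread between arrays. TWIST1 by this probe was at least 1.79-fold higher after miR-210-3p than after miR-874-3p and at least 1.44-fold higher after miR-629-3p than after miR-874-3p. Against NC it was at least 1.37-fold higher after miR-210-3p and at least 1.1-fold higher after miR-629-3p. These folds are a description with no test, since the probe passed the filter only through the groups in which it was high. The TWIST1 probes thus put miR-629-3p and miR-210-3p in opposite orders, by 0.24 for the coding probe and -0.31 for the 3′ probe (adjusted p = 0.0774), and neither of these differences passed the test, though both did without either miR-874-3p array (adjusted p = 0.0493 and 0.0451). The remaining TWIST1 probes (chr7:19039842-19039901 and chr7:19039592-19039651), which the array annotation assigns to a predicted transcript, were above background on no array.

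TWIST2 was read by 2 probes that moved differently. The variant 1 probe (chr2:239832044-239832103, plus strand) read 3.33 and 3.22 after miR-629-3p, 2.81 and 2.78 after miR-210-3p, 2.80 and 2.93 after miR-874-3p, and 2.94 and 2.89 after NC. The miR-629-3p arrays stood above all others. By this probe TWIST2 was 1.28-fold higher after miR-629-3p than after NC (0.36 ± 0.08, SE, adjusted p = 0.0448 in limma), 1.39-fold higher than after miR-210-3p within slide row 1 (0.48, adjusted p = 0.0175) and 1.33-fold higher than after miR-874-3p (0.41, adjusted p = 0.0319). The other 3 groups were not told apart, with differences of -0.12 for miR-210-3p against NC (95% interval -0.33 to 0.09) and -0.05 for miR-874-3p against NC (-0.26 to 0.16). The call against NC was lost without any 1 of the miR-629-3p, miR-210-3p or NC arrays (adjusted p from 0.0935 to 0.202) and with each array centred on the median of the kept probes (0.0567) or no filter on detection (0.0617). The call against miR-210-3p was lost without any 1 array of these mimics (0.0647 to 0.0993) and with no filter (0.0837), and the call against miR-874-3p without any 1 array other than miR-874-3p array 2 (0.0580 to 0.156).

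The TWIST2 variant 2 probe (chr2:239795604-239795663) lies upstream of the variant 1 probe. It read -0.54 and -0.48 after miR-629-3p, -0.34 and -0.34 after miR-210-3p, -0.14 and -0.34 after miR-874-3p, and -0.70 and -0.67 after NC. The NC arrays were the lowest, and those of miR-210-3p lay within 0.20 of those of miR-874-3p. No pair of groups passed the test. The difference from NC was 0.45 for miR-874-3p (95% interval 0.23 to 0.66, adjusted p = 0.117), 0.34 for miR-210-3p (0.13 to 0.56, adjusted p = 0.0802) and 0.18 for miR-629-3p (-0.04 to 0.39, adjusted p = 0.225). The F test over the 4 groups called this probe (adjusted p = 0.0476). Over the 8 arrays the log2 signals of the TWIST2 probes had an r of -0.41, while that of variant 1 had an r of 0.84 with SNAI2 and -0.93 with SNAI1.

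ZEB1 was measured on 3 of 8 arrays. ZEB1 probe 1 (chr10:31818063-31818122, plus strand) read -2.19 and -2.51 after miR-210-3p, above background on both arrays, and -1.64 on NC array 2. The signals of -4.67 on NC array 1, -4.48 and -4.40 after miR-629-3p and -3.33 and -3.66 after miR-874-3p were not well above background. The NC arrays thus lay on either side of all others. ZEB1 was at least 2.48-fold higher after miR-210-3p than after miR-629-3p by these signals. This fold is a description, since the probe passed the filter only through the miR-210-3p arrays, where it was above background. For the same reason a test cannot decide the pair, and limma called none of the 6 comparisons. ZEB1 probe 2 (chr10:31816261-31816320) read -5.67 to -4.38 and was above background on no array. ZEB1-AS1, the antisense transcript of ZEB1, was tested and not called, at -0.32 after miR-629-3p and 0.34 after miR-210-3p against NC.

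ZEB2 was above background on 2 of 8 arrays, by 1 of its 3 probes. That probe (hg19, chr2:145182363-145182422, minus strand) is shown because it alone gave a signal for this gene.
ZEB2 probe 1: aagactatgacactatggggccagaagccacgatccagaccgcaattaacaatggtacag
It read -1.16 on miR-629-3p array 1 and -2.61 on miR-210-3p array 1, and -4.18 and -5.25 on the other array of each of these groups. The miR-874-3p arrays read -4.92 and -3.77 and the NC arrays -4.86 and -4.81, all below background. In neither group was the signal found on both arrays, so the probe was not tested. ZEB2 probe 2 read between -4.24 and -3.06 and the variant 3 probe between -5.79 and -4.91, above background on none of the 8 arrays.

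Counted over the 5 probes measured on all 8 arrays, miR-629-3p against NC had 3 called higher (SNAI2, the TWIST1 coding probe and TWIST2 variant 1) and 0 called lower, where 15.2% of all probes tested were called, 8.85% as higher and 6.38% as lower. For miR-210-3p against NC, 1 of 5 was called, SNAI2 as lower, where 5.64% of all probes were called, 3.72% as higher and 1.92% as lower. For miR-874-3p against NC, limma called 0 of 5, with 1 at an unadjusted p under 0.05 (TWIST2 variant 2) and 0 by the methods' t-test after adjustment. Of all probes, 0.352% were called (0.19% higher and 0.161% lower) and 15.7% had an unadjusted p under 0.05. For miR-629-3p against miR-210-3p, 3 of 5 were called (SNAI2 and TWIST2 variant 1 higher, SNAI1 lower), beside 21% of all probes (9.24% higher and 11.7% lower). For miR-629-3p against miR-874-3p, 3 of 5 were called higher (SNAI2, the TWIST1 coding probe and TWIST2 variant 1) and SNAI1 lower, beside 14.5% of all probes (8.63% higher and 5.91% lower). For miR-210-3p against miR-874-3p, SNAI2 was called lower and 0 of 5 higher, beside 8.57% (5.55% higher and 3.02% lower). The TWIST1 3′ probe passed the filter only through the groups in which it was high and is left out of these counts, as is ZEB1. The shares here and in the next paragraph, unlike the 5, include probes measured in only some groups. A fit of the 22067 probes measured on all arrays was an alternative. Its calls for these comparisons, in the same order, were 4750, 2289, 46, 6586, 4623 and 3138. It also called SNAI1 lower for miR-629-3p against NC (adjusted p = 0.0362 in limma). The TWIST1 coding probe was called higher there for miR-210-3p against miR-874-3p (0.0312).

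By the study's rule, which takes a 2-fold change and an unadjusted p under 0.05, 0 of 5 were called in each comparison with NC, where that rule called 5.33% of all probes for miR-629-3p, 3.2% for miR-210-3p and 2.01% for miR-874-3p. It called 1 of 5 for miR-629-3p against miR-210-3p (SNAI2, beside 5.57%), 0 of 5 for miR-629-3p against miR-874-3p (5.03%) and 0 of 5 for miR-210-3p against miR-874-3p (3.76%). Neither a fit of only the 2 groups compared nor the methods' t-test with adjustment called any of the 5 against NC or miR-874-3p. The arrays of the groups did not overlap in 5 of 5 probes for miR-629-3p against NC, where this held for 65% of all probes, in 5 for miR-210-3p against NC (61.2%) and in 3 for miR-874-3p against NC (42.9%). They did not overlap in 5 of 5 for miR-629-3p against miR-210-3p (69.8%) and against miR-874-3p (60.2%), and in 4 for miR-210-3p against miR-874-3p (57.5%). The shares of all probes rested on single arrays too. For miR-629-3p against NC 4156 probes were called, but 372 or 385 without an array of that mimic, 2032 without either miR-210-3p array and 1932 or 997 without an NC array. For miR-210-3p against NC 1541 were called, but 117 or 136 without an array of that mimic, 347 without either miR-629-3p array, 396 or 419 without an NC array and 2746 without either miR-874-3p array. The comparisons with NC share the NC arrays, so their values are not independent of each other.

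**Figure D2:**
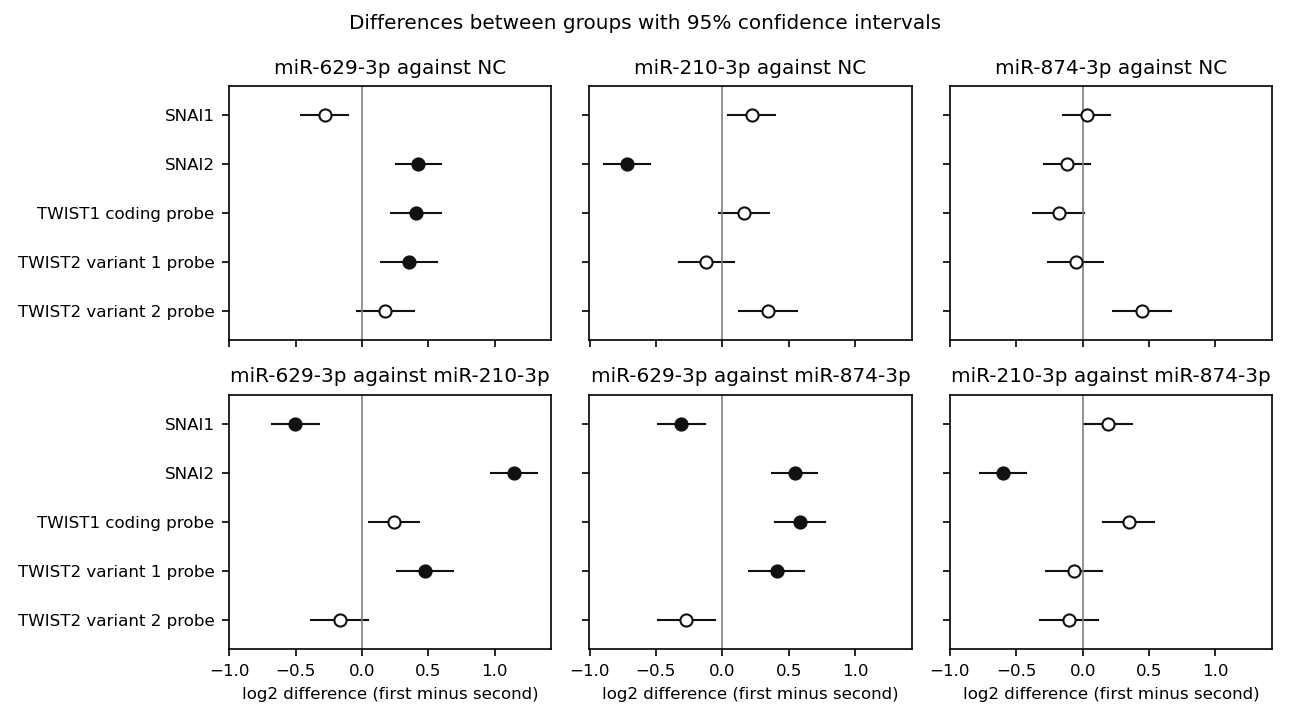
Log2 differences (first group minus second) of the 5 probes measured on all 8 arrays in the 6 comparisons of groups, with 95% confidence intervals from limma. Filled points passed an adjusted p of 0.05. SNAI2 lies at 1.14 for miR-629-3p against miR-210-3p, opposite in sign to SNAI1 at -0.50, and no point is filled for miR-874-3p against NC.

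Epithelial genes that these factors are known to repress moved in both directions. Of 26 tested by the brightest probe of each gene, 4 rose and 4 fell after miR-629-3p compared with NC, with a median log2 difference of 0.01 beside 0.02 over all genes, where 15.6% of all genes were called, 8.71% higher and 6.89% lower. CDH1, which encodes E-cadherin and is the classic target of repression by SNAI1, SNAI2 and ZEB1, read 4.47 and 4.53 after miR-629-3p, 5.27 and 5.03 after miR-210-3p, 4.94 and 5.15 after miR-874-3p, and 5.02 and 4.94 after NC. It was lower after miR-629-3p than after NC (-0.48 ± 0.12, SE, adjusted p = 0.0489 in limma), and the miR-210-3p arrays differed from NC by 0.17 (adjusted p = 0.426). The keratin gene KRT18 (-0.47), the polarity gene LLGL2 (-0.39) and the P-cadherin gene CDH3 (-0.38) were also lower after miR-629-3p. Higher were the tight junction genes CLDN4 (0.81), MARVELD2 (0.66) and MARVELD3 (0.46), and OVOL1 (0.56), a transcription factor known to oppose EMT. Where a list had more than 3 genes called in a direction, those beyond the largest 3 were named after their values were seen.

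With miR-210-3p, 3 of the 26 epithelial genes were higher than after NC and 1 was lower, beside 5.62% of all genes called, 3.62% higher and 2.01% lower. The tight junction gene CLDN3 rose by 2.0 ± 0.30 (SE, adjusted p = 0.0273 in limma), MARVELD2 by 0.78 and the transcription factor gene GRHL1 by 0.62, while LLGL2 fell by 0.63. With miR-874-3p 0 of 26 were called, beside 0.371% of all genes (0.202% higher and 0.169% lower), and 0 genes of each of the other lists below. The summed linear signal of 8 squamous markers, CDH1 among them, was 606 to 642 for NC, 559 to 630 for miR-874-3p, 514 to 518 for miR-629-3p and 456 to 457 for miR-210-3p. Its part in these results was not tested.

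Mesenchymal genes known as raised in EMT also moved both ways. Of 18 tested, 4 were higher and 4 lower after miR-629-3p than after NC, and 4 higher and 2 lower after miR-210-3p. Of all genes, 8.71% were called higher and 6.89% lower in the former comparison and 3.62% and 2.01% in the latter. With miR-629-3p, the calcium-binding protein gene S100A4 rose by 1.99 ± 0.47 (SE, adjusted p = 0.0452 in limma), the matrix gene TNC by 1.16, the cadherin gene CDH11 by 1.09 and the receptor gene PDGFRB by 0.47. The collagen crosslinking enzyme gene LOX fell by 1.28 ± 0.27 (adjusted p = 0.0344), the collagen gene COL5A2 by 0.85, the protease gene FAP by 0.84 and the actin gene ACTA2 by 0.52. With miR-210-3p, CDH11 (0.72), TNC (0.63) and PDGFRB (0.50) were again higher, ACTA2 (-0.56) again lower, and the matrix metalloproteinase gene MMP2 lower (-0.62). The summed linear signal of 7 fibroblast markers, COL1A1 and PDGFRB among them, was 0.599 to 0.602 for NC, 0.653 to 0.672 for miR-629-3p and 0.950 to 2.11 for miR-210-3p. In that sum COL1A1 had a mean log2 signal of -0.55 after miR-210-3p, with an SD of 1.52 between the arrays. After NC its mean was -3.45, above background on neither array, and it was not called (adjusted p = 0.0621 in limma). The summed signal of 3 endothelial markers was 1.50 to 1.57 for NC, 2.51 to 2.73 for miR-629-3p and 1.39 to 1.62 for miR-210-3p. The part of either sum in these results was not tested.

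The genes of N-cadherin and vimentin, proteins that EMT is known to raise, read higher after miR-210-3p than after miR-629-3p. CDH2, which encodes N-cadherin, read 4.05 and 3.95 after miR-210-3p, 2.71 and 2.78 after miR-629-3p, 3.73 and 3.39 after miR-874-3p and 3.18 and 3.19 after NC. It was higher after miR-210-3p than after NC (0.82 ± 0.12, SE, adjusted p = 0.0282 in limma), and its other probe gave 0.86 (adjusted p = 0.0362). With miR-629-3p CDH2 differed from NC by -0.44 by its brightest probe (adjusted p = 0.0696) and by -0.03 by the other (adjusted p = 0.924). VIM, which encodes vimentin, read 5.95 and 5.91 after miR-210-3p and 4.12 and 4.07 after miR-629-3p, on either side of NC at 4.84 and 5.11 and of miR-874-3p at 5.14 and 4.47. Its differences from NC, 0.96 for miR-210-3p (adjusted p = 0.0680) and -0.88 for miR-629-3p (adjusted p = 0.0533), did not pass the test. FN1, the fibronectin gene, was called in no comparison with NC. By their brightest probes, CDH2 and VIM thus read lowest on the miR-629-3p arrays, on which SNAI2 read highest, and highest on the miR-210-3p arrays, on which SNAI2 read lowest.

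**Figure D3:**
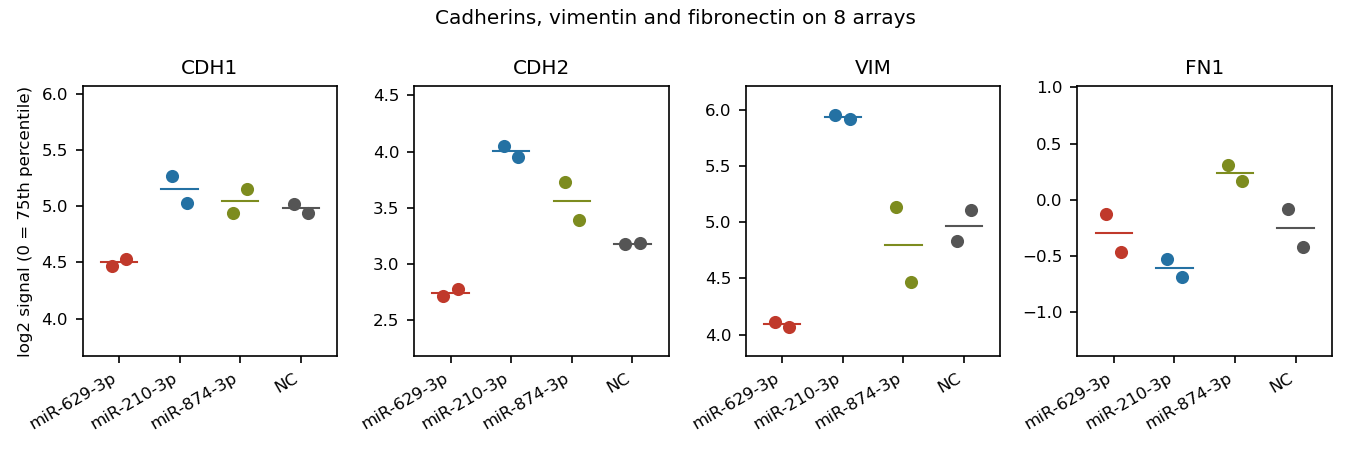
Log2 signal of the brightest probe of CDH1, CDH2, VIM and FN1, with 1 point per array and lines at the group means. CDH2 and VIM were highest on the miR-210-3p arrays and lowest on the miR-629-3p arrays, and CDH1 was lowest on the miR-629-3p arrays.

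Partners and regulators of the 6 factors were counted beside the shares of all genes called, 15.6% for miR-629-3p and 5.62% for miR-210-3p. Among the E proteins that pair with TWIST factors and the ID proteins that block this pairing, 1 of 6 was lower after miR-629-3p, the E protein gene TCF4 (-0.61 ± 0.14, SE, adjusted p = 0.0403 in limma), and 1 lower after miR-210-3p, the inhibitor gene ID1 (-0.84 ± 0.15, adjusted p = 0.0426). Of 19 corepressors and chromatin partners, through which SNAI1 and ZEB1 are known to silence genes, 3 were lower after miR-629-3p, namely the deacetylase gene HDAC1 (-0.64), SIN3A (-0.59) and CTBP2 (-0.41). The adaptor gene AJUBA was higher (0.38), and 0 of 19 were called after miR-210-3p. Of 12 enzymes known to set the stability of SNAI1 and its relatives, 3 were higher after miR-629-3p: the ubiquitin ligase genes MDM2 (0.90) and BTRC (0.67) and the kinase gene LATS2 (0.66).

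Of 18 genes of upstream signals, 5 were higher and 0 lower after miR-629-3p than after NC, beside 8.71% and 6.89% of all genes. They were the Notch ligand gene JAG1 (1.21 ± 0.26, SE, adjusted p = 0.0356 in limma), EGR1 (1.1), the hypoxia factor gene HIF1A (0.74), the TGF-beta receptor gene TGFBR2 (0.68) and its ligand gene TGFB2 (0.40). With miR-210-3p, 2 were higher, TGFBR1 (1.22) and EGR1 (0.90), and 0 lower, beside 3.62% and 2.01%. The median difference over the 18 genes was 0.02 for miR-629-3p and 0.22 for miR-210-3p, beside 0.02 and 0.05 over all genes. Among 8 other factors that can drive EMT, 1 was called, SOX9, higher after miR-210-3p (1.01), and of 3 antisense and host transcripts 0 were called in any comparison with NC. Calls in these lists depended on single arrays: with each array left out in turn, the count of upstream genes called against NC by any mimic ran from 0 to 7, of epithelial genes from 0 to 14 and of mesenchymal genes from 1 to 12.

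**Figure D4:**
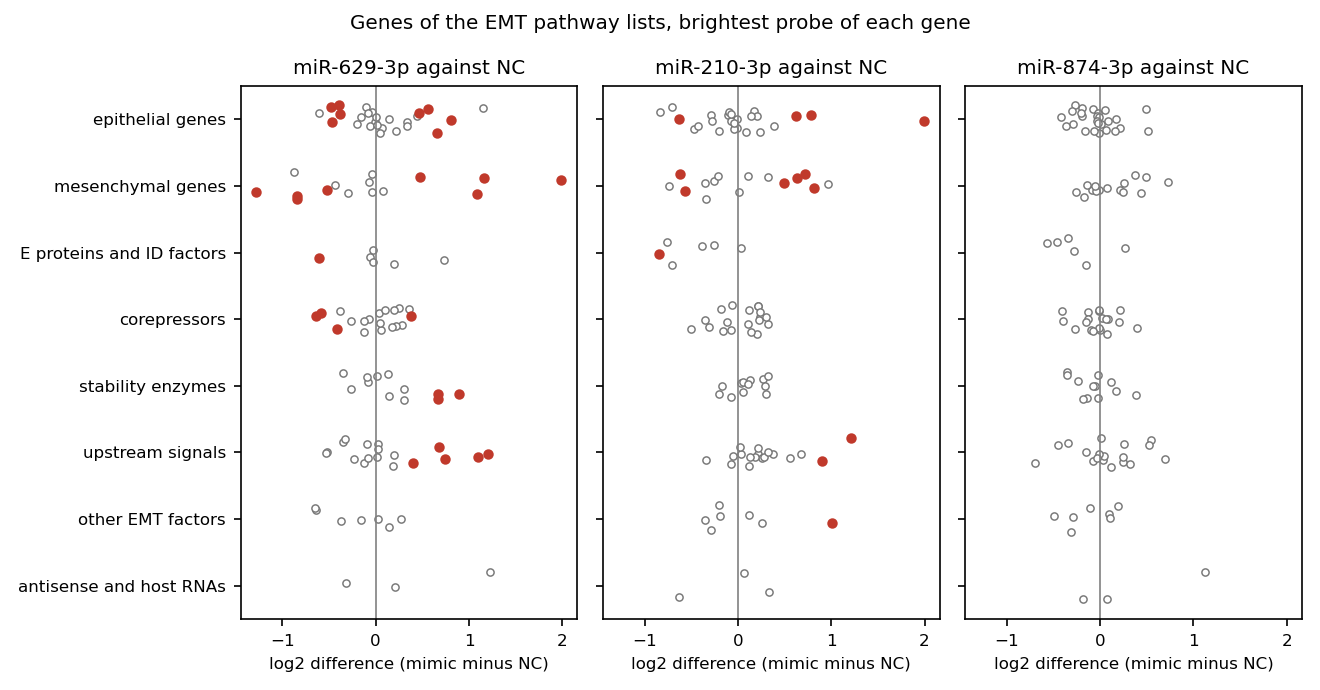
Log2 differences of each mimic from NC for the genes of 8 lists, 1 point per gene by its brightest probe, with filled points past an adjusted p of 0.05 in limma. Genes not well above background on the NC arrays are left out. Filled points lie on both sides of 0 for epithelial and mesenchymal genes, only above 0 for stability enzymes and upstream signals, and are absent for miR-874-3p.

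SNAI and ZEB factors bind the E-box letters CAGGTG, or CACCTG on the other strand. These letters were found in 20.6% of 35116 RefSeq promoters (GRCh38.p14, 300 bases each around the transcription start), in 66.7% of 18 promoters of the epithelial genes and in 17.6% of those of the mesenchymal genes. Promoters were at hand for 14 of the 28 epithelial and 12 of the 25 mesenchymal genes listed, and some genes had several. The epithelial list was picked as genes known to be repressed by these factors, so its share is no independent result. A gene without a window below, CDH1 among them, may have had no promoter at hand. Of the 6 factors, TWIST2, ZEB1 and ZEB2 had promoters in the table, and 2 of these 9 promoters held the letters, both of ZEB1. The windows below are those of the epithelial or mesenchymal genes called against NC whose promoters held the letters, with the E-box in capitals, 5′ to 3′ on the strand of the gene.
CLDN3 (chr7:73770221-73770244): aagccacaggCAGGTGcaggcgca
LOX (chr5:122077305-122077330): agcacccgtgCACCTGgtccccagct
S100A4 (chr1:153545955-153545980): cacgggtgccCACCTGggaacaggag
CLDN3 was higher on the miR-210-3p arrays, while LOX was lower and S100A4 higher on the miR-629-3p arrays. A match of letters describes the promoter only, and binding of the factors was not measured.

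Genes with the pattern most like each factor were found by the Pearson r of log2 signals over the 8 arrays, among 17400 genes above background on all of them. For SNAI2 they were ARMCX6, NAA30 and MYBPHL (r from 0.990 to 0.994), and for SNAI1 WDR73, ZNF257 and CSNK1D (0.993 to 0.994). For the TWIST1 coding probe they were CKLF, E2F7 and PRSS23 (0.977 to 0.997), and for TWIST2 variant 1 ISG15, AKR1B1 and KBTBD7 (0.993 to 0.998). None of these 12 is a member of the 8 lists, and the lists of the 4 factors shared no gene. With 4 groups of 2 arrays, an r of this size is a description of group means.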

How the data were processed

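Per the labels, RNA of 8 samples (100 ng each) was labelled with Cy3 and hybridised to 1-colour Agilent arrays of human genes. The authors deposited Feature Extraction 11.5.1.1 output, whose intensity values are background-subtracted processed signals with outlier and detection flags, without normalization between arrays. They also deposited a table of log2 values, which equalled log2 processed signal minus about the 75th percentile of each array after a constant offset, and served as an alternative. Outlier spots (87 to 346 of 60901 gene spots per array) were left out, spots of a probe averaged, and log2 signal taken relative to the array's 75th percentile over gene probes. No spot was saturated. The number of arrays, 2 per group, limits the precision.

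A probe entered the fit if every array gave it a value and both arrays of some group read it well above background (27303 probes). The fit used limma 3.58.1 (lmFit, eBayes; R 4.3.3) over all 8 arrays, without covariates (4 residual and 1.72 prior degrees of freedom). Adjusted p-values are Benjamini-Hochberg over all 27303 probes, and a call is an adjusted p under 0.05. Lists use the brightest of each gene's probes. Genes were named if they were members, the 3 most similar in pattern, CDH1, VIM, CDH2 or FN1, or among the 3 largest called changes per list, direction and comparison with NC. The members and lists were chosen with earlier results of these data known. Coordinates are hg19, from the array annotation, except for sequences credited to RefSeq.

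The same replicate numbers occur in all groups. Deviations of same-numbered arrays correlated between -0.10 and 0.04, so no shared deviation by number was seen. This does not settle whether same-numbered samples were prepared together. In simulated data for miR-629-3p against NC (27303 probes, 200 changed), 51% of changes of 1 and 89% of changes of 2 on the log2 scale were recovered, with 12 false calls. The simulation changed far fewer probes than the 4156 called in the data. Its changes were also larger than every difference from NC of the 5 probes measured on all arrays. These rates therefore do not give the recovery for those probes.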

Additional observations from a re-analysis of the deposited data

Results flagged for a closer look

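ZEB2 probe 1 was not part of any test, since it was not above background on both arrays of a group. It read -1.16 on miR-629-3p array 1 and -2.61 on miR-210-3p array 1, both above background and above the highest NC array, at -4.81. The other array of each group, at -4.18 and -5.25, was not well above background.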

How the results depend on the processing

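The 13 alternatives that kept all arrays changed the background correction, scaling, filter, variance model, samples or test, and 8 more left out 1 array each. Of the 13, those that changed only the filter, variance model, samples or test left each difference unchanged and could not turn it. The direction of every difference of the 5 SNAI and TWIST probes measured on all arrays was kept in the 13 alternatives, or for TWIST2 variant 2 in the 12 that hold its probe. It turned for 3 uncalled differences near 0 with an array left out: SNAI1 for miR-874-3p against NC (-0.0174 without miR-874-3p replicate 1, range up to 0.0757), TWIST2 variant 1 for the same pair (0.0144 without miR-874-3p replicate 1, range down to -0.12) and TWIST2 variant 1 for miR-210-3p against miR-874-3p (0.000552 without miR-874-3p replicate 2, range down to -0.134).

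The replicate number was also taken as a block, although no shared deviation of same-numbered arrays was seen. With the block, 1 of the 7 tested probes was called for miR-629-3p against NC (the TWIST1 3′ and ZEB1 probes included, here and below). It gave 3 for miR-629-3p against miR-874-3p and 2 in the F test. Calls of the lists fell to 3 epithelial, 4 mesenchymal, 3 upstream, 1 corepressor, 0 E protein or ID and 0 other genes. Counts that include the TWIST1 3′ and ZEB1 probes can hold calls against a group in which the probe was not well above background. They thus differ in kind from the counts of 5 given above. The methods' t-test called 1 probe (SNAI2) for miR-629-3p against miR-210-3p and 0 in the other comparisons, and 0 genes of each list. Fits of only the 2 groups compared called 0 probes for miR-629-3p or miR-210-3p against NC and against miR-874-3p, and 4 epithelial, 0 E protein or ID, 1 corepressor, 2 other and 1 antisense or host gene. Without the filter, 0 probes were called for miR-210-3p against NC, 1 for miR-629-3p against miR-210-3p and 1 for miR-210-3p against miR-874-3p, with 2 corepressors and 2 other factors. With normexp, 1 probe was called for miR-210-3p against miR-874-3p, and 4 E protein or ID genes, 8 corepressors, 6 stability enzymes, 3 other factors and 1 antisense or host gene. With a trend in eBayes, 3 probes were called for miR-629-3p against miR-874-3p, and 16 epithelial genes, 5 E protein or ID genes, 9 corepressors, 5 stability enzymes, 2 other factors and 2 antisense or host genes. The median as centre, the floor and the filter on all arrays each gave 2 other factors and 1 antisense or host gene, and the authors' values and the outlier spots each gave 1 E protein or ID gene.

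With each array left out, probes called ran from 0 to 4 for miR-629-3p against NC, 0 to 3 for miR-210-3p against NC, 0 to 0 for miR-874-3p against NC, 1 to 5 for miR-629-3p against miR-210-3p, 0 to 6 for miR-629-3p against miR-874-3p, 0 to 3 for miR-210-3p against miR-874-3p and 2 to 6 in the F test. List calls ran from 0 to 14 (epithelial), 1 to 12 (mesenchymal), 0 to 4 (E proteins and ID), 0 to 5 (corepressors), 0 to 4 (stability), 0 to 7 (upstream), 0 to 2 (other factors) and 0 to 2 (antisense and host).

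Over all probes, 4156 were called for miR-629-3p against NC, but 2223 with the block, 2640 with only these groups, 13994 without the filter and 0 by the t-test. For miR-210-3p against NC, 1541 became 502, 13, 66 and 0, with 2928 by normexp and 3114 with a trend. For miR-874-3p against NC, 96 became 48, 12, 25 and 0, with 381, 550 and 46 (detected on all arrays). For miR-629-3p against miR-210-3p, 5723 became 3597 with the block, 1603 without the filter and 932 by the t-test. For miR-629-3p against miR-874-3p, 3969 became 2214, 201, 12447 and 0, and for miR-210-3p against miR-874-3p 2339 became 831, 37, 261 and 3, with 3914 by normexp and 4061 with a trend. The causes were not tested. With 1 array left out, these counts ran from 372 to 5526, 117 to 2746, 28 to 324, 966 to 7244, 441 to 4932 and 156 to 3225, in the same order. ZEB1, ZEB2 and the TWIST1 3′ probe were not well above background in some groups, where the arrays give bounds at most.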
